A study of Xenopus laevis with 36 samples.

Results

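The genes examined here are used as markers of the endothelium, the cell layer that lines blood and lymphatic vessels. They were followed in healing skin wounds of juvenile *Xenopus laevis*. They were taken as every row of the count table whose name, without a final .L or .S, was *cdh5*, *pecam1*, *kdr*, *flt1*, *flt4*, *tie1*, *tek*, *vwf*, *egfl7* or *plvap*. The frog's genome is allotetraploid, so that many genes have an L and an S copy, and each copy was kept apart. The rule found 13 of the 42257 rows with a gene name, from 8 of the 10 symbols. These were *cdh5.L*, *cdh5.S*, *pecam1.L*, *pecam1.S*, *kdr.S*, *flt1.L*, *flt1.S*, *tie1.L*, *tek.L*, *tek.S*, *vwf.L*, *egfl7.L* and *egfl7.S*, and all 13 were among the 28225 rows that passed the filter on low counts and were tested. The copies *kdr.L* and *flt4.L* and the gene *plvap* were not analysed here, since no row carried their names.

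Wild-type (WT) frogs, whose age the labels do not give, received a wound of dorsal skin from a 2 mm biopsy punch that left the muscle beneath in place. At 3 days post-wounding (dpw) all were injected under the skin with 20 µL, holding 1 µg of recombinant CSF1 (rCSF1) or of recombinant IL34 (rIL34), the macrophage growth factors, or an equal volume of rctrl, which is the preparation of insect cells with an empty vector. Skin was taken at 7 or 14 dpw. This gave the groups rctrl, rCSF1 and rIL34 at each day, with 6 libraries in each of the 6 groups and 36 in all, and no group was left unwounded or uninjected. The labels number the replicates of a group and do not say that each is a separate animal, so that p-values measure the spread between these libraries.

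Endothelial cells are held together by VE-cadherin, the product of *cdh5*, and by PECAM1. They sprout in answer to the growth factor VEGF, which is read by the receptor KDR and captured by its relative FLT1. Mature vessels are kept stable through the angiopoietin receptor TEK and its partner TIE1. Wound healing in vertebrates goes with the growth of new vessels into the wound bed and the later loss of many of them. EGFL7 is secreted by endothelial cells onto their matrix, and von Willebrand factor, the product of *vwf*, is stored in endothelial cells and released to catch blood platelets, which in frogs are replaced by nucleated thrombocytes.

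Levels are given as CPM, read counts scaled to a common library size with TMM factors that correct for composition, and changes as edgeR log2 fold changes with a standard error (SE). The SE was derived from the test, as the absolute log2 fold change divided by the square root of its F statistic. Exon lengths were not used here, so that CPM can be compared between samples for a gene but not between genes. Total counts were 22435798 to 34868292 per library (median 29370148). The rows were counted at low to high depth, from 8 reads of *flt1.S* in its lowest library to 6660 of *cdh5.L* in its highest. Median levels over all libraries ran from 1.87 CPM for *flt1.S* to 44.1 for *vwf.L*, so that values of the former carry more counting error. In RNA of whole skin, fewer endothelial cells, less RNA per endothelial cell and transcripts of these genes from other cells cannot be told apart.

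Some libraries stood apart before any of these genes was considered. Replicates 2 and 5 of rCSF1 at 7 dpw lay away from the rest of their group in a principal component analysis of all tested rows. The 18 rows of red blood cell genes summed to 86.5 and 116 CPM in them whereas replicates 1, 3, 4 and 6 of the group had 586 to 1691, and the 18 rows of fibroblast genes to 3071 and 3868 CPM, whereas those replicates had 11924 to 17846. Transcripts of skeletal muscle were high in replicates 1, 2 and 6 of rCSF1 at 14 dpw, where its 17 rows summed to 2847, 4156 and 30590 CPM. They summed to 99.5 to 148.5 in the group's other libraries and to 12.3 to 72.7 in rctrl at 14 dpw. In rIL34 wounds the highest sum at 14 dpw was 693 CPM, in replicate 1. At 7 dpw rIL34 replicates 1 and 2 had 177 and 106 CPM, and rctrl had 14.7 to 73.1. The counts of rows called after rCSF1 are given with and without the set of rCSF1 libraries that enters them.

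**Figure D1:**
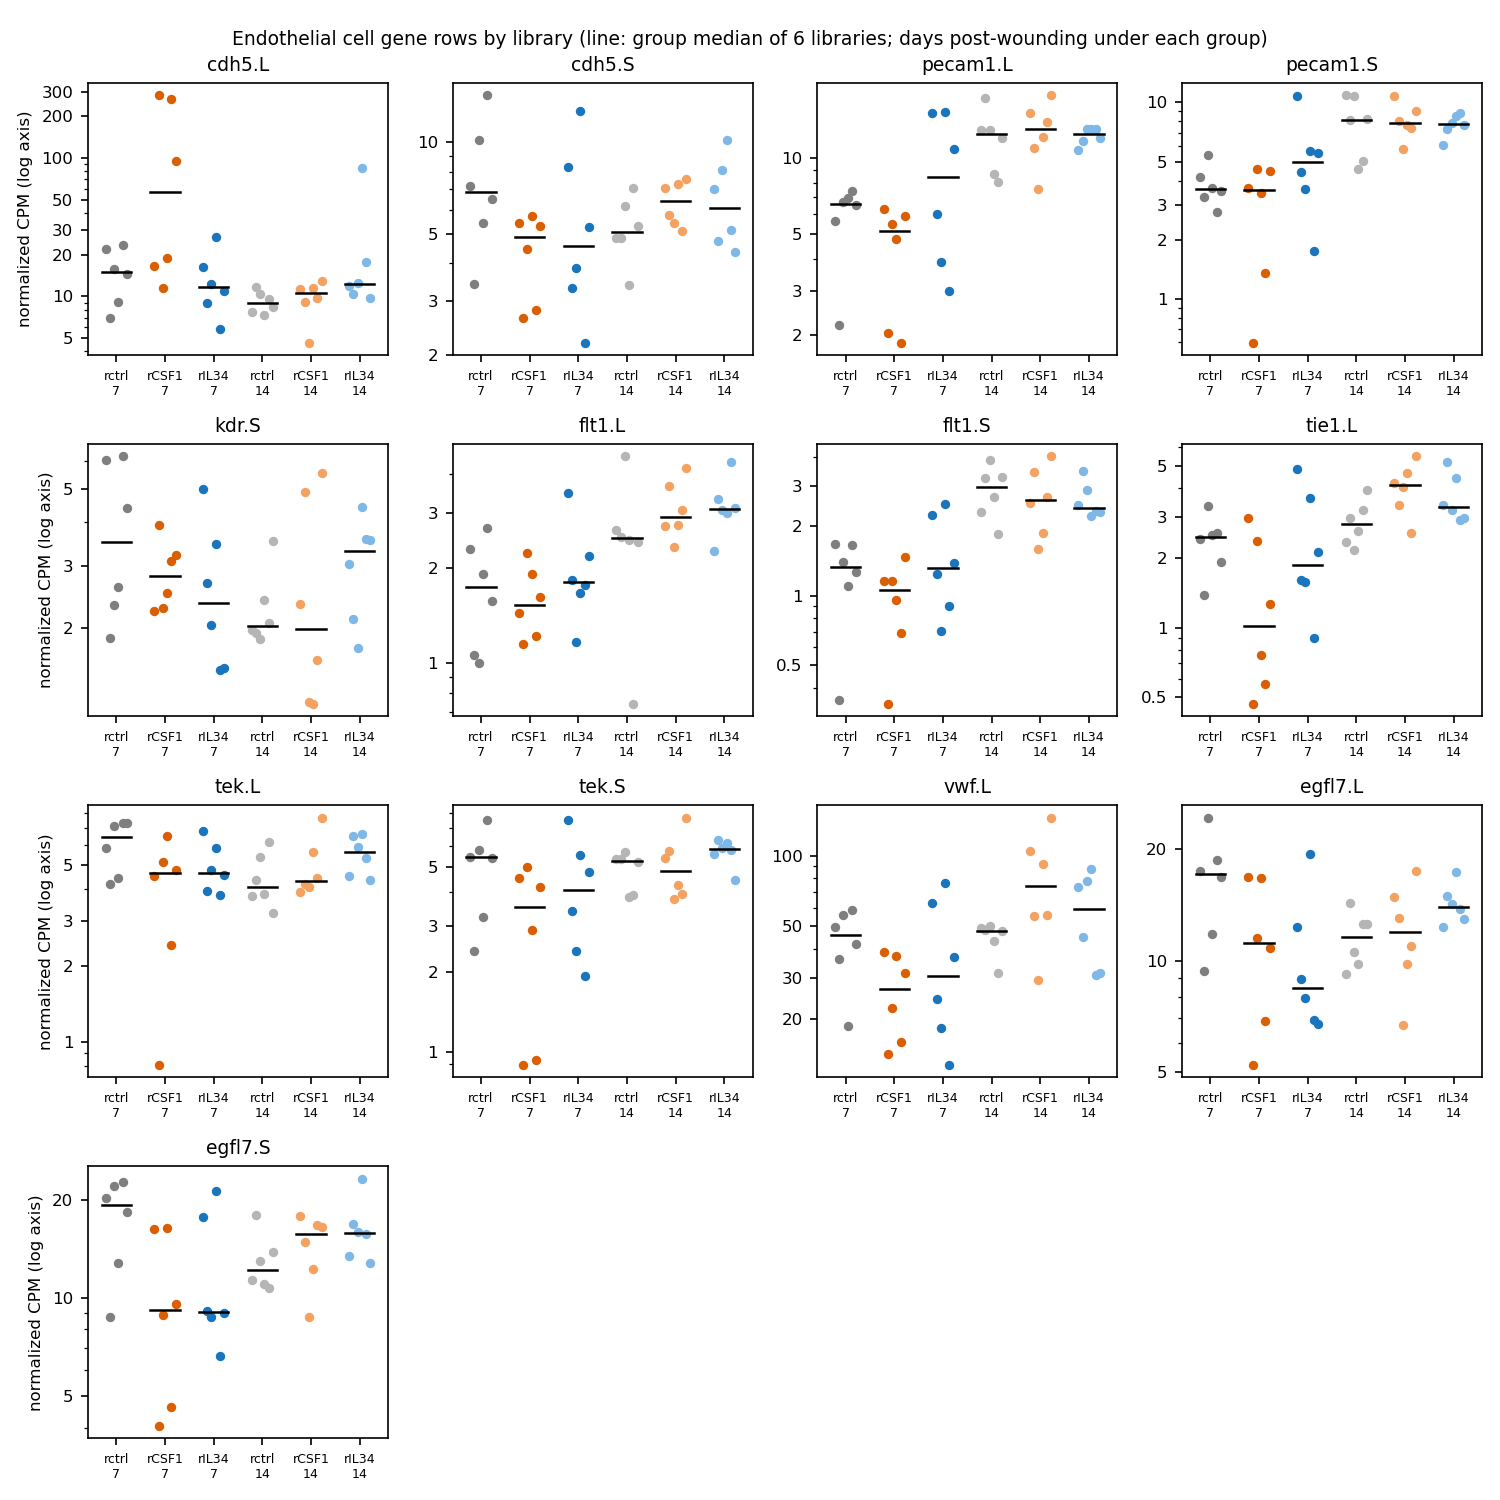
Level of each of the 13 endothelial cell gene rows in every library, as normalized CPM on a log axis (vertical) by treatment and day post-wounding (horizontal). Each point is 1 library and each line the median of 6. *cdh5.L* reaches 284 CPM in rCSF1 at 7 dpw. The medians of the *pecam1* and *flt1* rows are higher at 14 than at 7 dpw in each treatment, though not all of these differences passed the test.

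At 7 dpw, rCSF1-treated wounds held more *cdh5.L* transcript than rctrl wounds and less *cdh5.S* and *egfl7.S*, and the other 10 rows did not pass the test. The *cdh5.L* gene lies on chromosome 4L at 50784561 to 50836584 of Xenopus_laevis_v10.1, and no other gene of the RefSeq table overlaps it. Its level in rctrl wounds was 6.96 to 23.6 CPM with a median of 15.1. In rCSF1 wounds it was 16.5, 284, 11.6, 18.9, 266 and 94.5 CPM in replicates 1 to 6. Replicates 2, 5 and 6 were therefore far above every rctrl library, while replicates 1, 3 and 4 were within the rctrl range. The log2 fold change was 2.91 (SE 0.63, adjusted p = 0.000668). Without replicates 2 and 5 it was 1.18 (adjusted p = 0.15), and voom with quality weights gave 1.10 (adjusted p = 0.122). An exact two-sided Wilcoxon test, which ranks the libraries and gives no weight to the size of the highest values, had p = 0.132.

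The S copy did not share these high values. *cdh5.S*, on chromosome 4S at 39605710 to 39651440, was at 3.43 to 14.3 CPM with a median of 6.84 in rctrl and at 2.64 to 5.72 with a median of 4.89 in rCSF1 wounds. The groups overlapped, and the lowest values in rCSF1 were the 2.64 and 2.81 CPM of replicates 2 and 5, the libraries in which *cdh5.L* was highest. Its log2 fold change was -0.83 (SE 0.33, adjusted p = 0.0469), and the exact two-sided Wilcoxon test, unadjusted, had p = 0.0649. The L copy took 60.8 to 75.3% of the reads of both copies in rctrl and 72.1 to 99.1% in rCSF1 wounds at 7 dpw, with a count of L 107 times that of S in replicate 2, 94.6 times in replicate 5 and 17.8 times in replicate 6. In the 32 libraries other than these and rIL34 replicate 4 at 14 dpw, the L copy took 46.0 to 77.4% of the reads and was at 4.64 to 26.7 CPM. With the copies summed, the log2 fold change of *cdh5* was 2.33 (adjusted p = 0.00197), so that the sum carries the direction of the L copy.

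**Figure D2:**
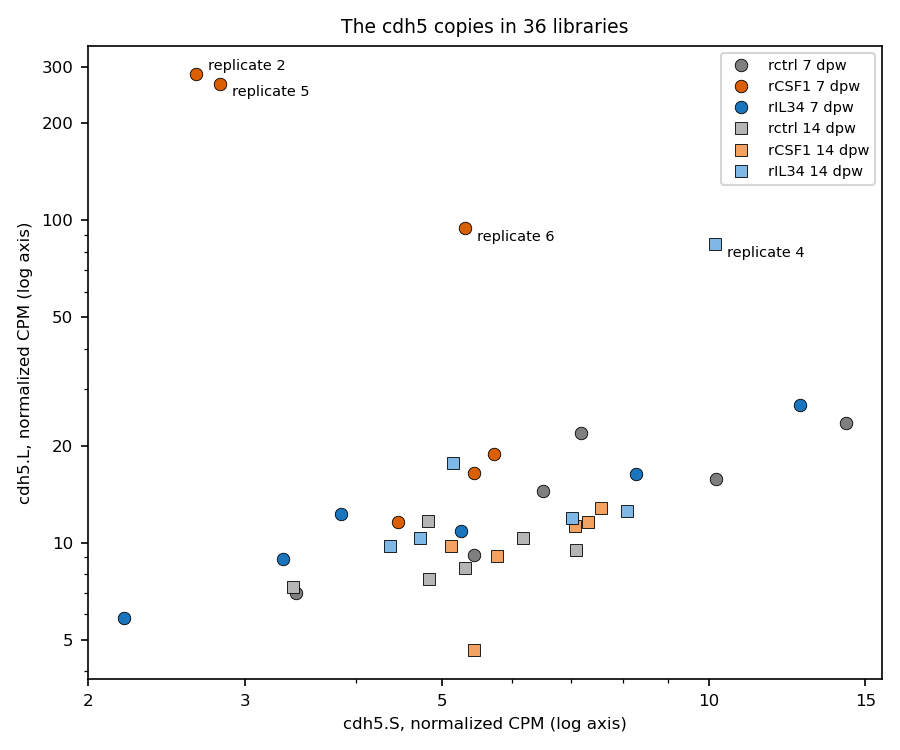
Level of the L copy of *cdh5* (vertical) against that of its S copy (horizontal) in 36 libraries, both as normalized CPM on log axes, with circles for 7 dpw and squares for 14 dpw. In 32 libraries *cdh5.L* is at 4.64 to 26.7 CPM, and the 4 marked libraries lie above them at 284, 266, 94.5 and 84.2 CPM.

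The nearest gene to *cdh5.L*, the unnamed locus *LOC108714051*, begins 10377 bases from it. It was at 3.11 to 7.87 CPM in rctrl wounds and at 12.4, 17.6, 8.71, 3.00, 27.9 and 33.5 in replicates 1 to 6 of rCSF1 wounds at 7 dpw. The 5 rCSF1 libraries other than replicate 4 thus lay above every rctrl library, and the log2 fold change was 1.73 (SE 0.42, adjusted p = 0.00197), or 1.45 without replicates 2 and 5 (adjusted p = 0.0322). In rIL34 replicate 4 at 14 dpw, where *cdh5.L* was at 84.2 CPM, the locus was at 6.30 CPM against 1.34 to 5.74 in rctrl. Whether reads of the *cdh5.L* row come in part from transcripts that extend between the loci was not tested.

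The 12 rows other than *cdh5.L* all had negative log2 fold changes in this comparison, from -0.83 to -0.14 with a median of -0.56, where the median over all tested rows was -0.03. Of the 13 rows, 1 was called higher and 2 lower, and of all tested rows 20.4% were called higher and 14.1% lower, so that the share of endothelial rows called was near the background. The second row called lower was *egfl7.S*, on chromosome 8S at 29401008 to 29418799. It was at 8.76 to 22.7 CPM (median 19.3) in rctrl and at 4.05 to 16.3 (median 9.20) in rCSF1 wounds, with a log2 fold change of -0.81 (SE 0.30, adjusted p = 0.0342). Its groups overlapped, with the 4.05 and 4.64 CPM of replicates 2 and 5 below every rctrl library. The exact two-sided Wilcoxon test of *egfl7.S*, unadjusted, had p = 0.0649.

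The angiopoietin receptor rows had values in the same direction that did not pass the test. *tie1.L*, on chromosome 4L at 83163206 to 83192818, was at 1.38 to 3.36 CPM (median 2.46) in rctrl and at 0.469 to 2.96 (median 1.01) in rCSF1 wounds, where replicates 2, 4, 5 and 6 were below every rctrl library. Its log2 fold change was -0.75 (SE 0.36, adjusted p = 0.108). The log2 fold change of *tek.L* was -0.58 (adjusted p = 0.104) and that of *tek.S* was -0.69 (adjusted p = 0.112). *tek.L* was at 0.81 and 2.40 CPM in replicates 2 and 5 against 4.20 to 7.35 in rctrl. *vwf.L*, on chromosome 3L at 25578980 to 25685085, was at 18.7 to 58.7 CPM (median 45.8) in rctrl and at 14.2 to 38.9 (median 27.0) in rCSF1 wounds, with a log2 fold change of -0.70 (SE 0.38, adjusted p = 0.151). The VEGF receptor rows differed less, with log2 fold changes of -0.44 for *kdr.S* (adjusted p = 0.362), -0.14 for *flt1.L* (adjusted p = 0.75) and -0.36 for *flt1.S* (adjusted p = 0.417).

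Replicates 2 and 5 were the lowest rCSF1 libraries at 7 dpw for 11 of the 13 rows, the exceptions being *cdh5.L* and *kdr.S*. Replicate 2 was below every rctrl library at 7 dpw for 10 rows and replicate 5 for 9. Without both, none of the 13 rows was called (1 had an unadjusted p under 0.05) and their median log2 fold change was -0.26. Over all tested rows the calls went from 9748 with all libraries to 3626 without both, so that fewer rows of any kind were called. Voom called none either (2 with an unadjusted p under 0.05), and a fit to the compared groups alone called 1, *cdh5.L*. Of all tested rows voom called 6253 and the fit to the compared groups 5096. Leaving out any 1 of rctrl replicates 1, 3, 5 and 6 and rCSF1 replicates 2, 3 and 5 put *cdh5.S* at -0.88 to -0.61 (adjusted p = 0.0503 to 0.159). Leaving out any 1 of those libraries or rCSF1 replicate 6 put *egfl7.S* at -0.81 to -0.67 (adjusted p = 0.0533 to 0.1). In the other direction *tie1.L* passed without rCSF1 replicate 1 or 3 (-1.15 and -0.96), *tek.L* without replicate 4 (-0.77), *tek.S* without replicate 3 (-0.88) and *egfl7.L* without replicate 1 (-0.72). The call of *cdh5.L* held in each of the 12 fits that left out 1 library, at 2.37 to 3.14.

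**Figure D3:**
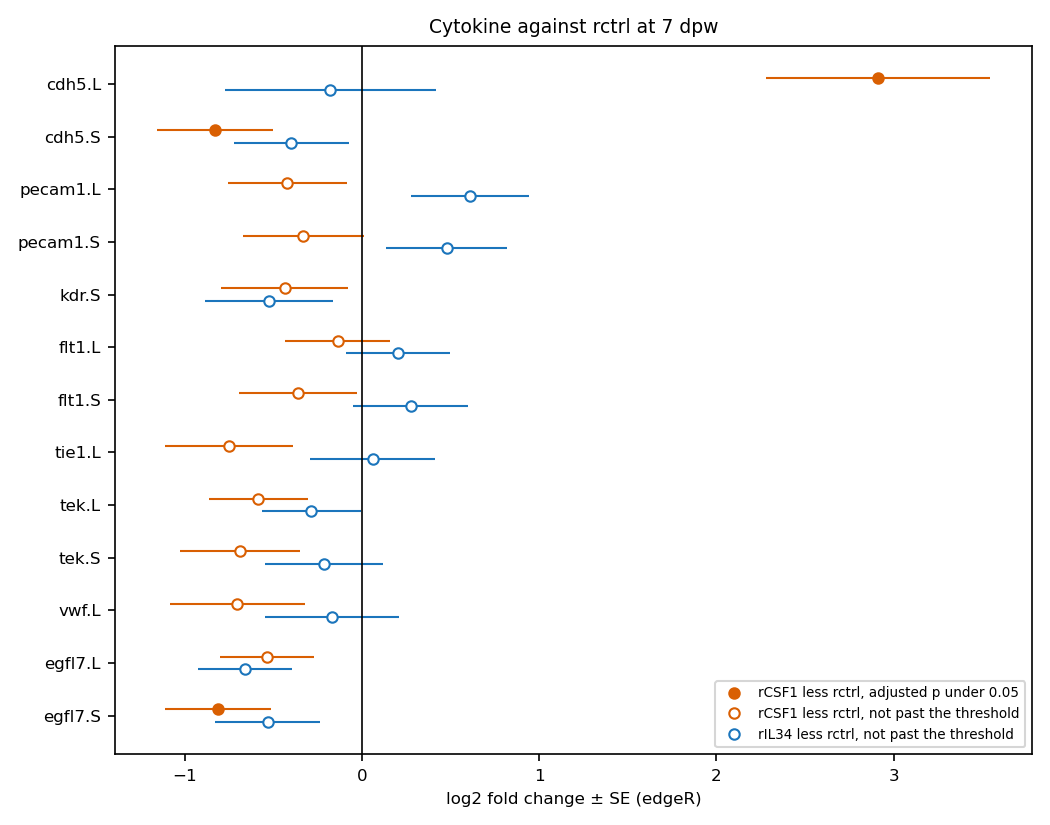
Log2 fold change against rctrl at 7 dpw (horizontal, with the standard error as a bar) of the 13 endothelial cell gene rows after rCSF1 and after rIL34, from 6 libraries a group. Filled points passed an adjusted p of 0.05, which were *cdh5.L* at 2.91, *cdh5.S* at -0.83 and *egfl7.S* at -0.81, all after rCSF1.

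After rIL34 at 7 dpw edgeR called none of the 13 rows, where 15.8% of all tested rows were called higher and 11.2% lower. Of the 13, 1 had an unadjusted p under 0.05, and DESeq2 and voom called 1 each. That row was *egfl7.L*, on chromosome 8L at 4501624 to 4522982. It was at 9.40 to 24.2 CPM (median 17.1) in rctrl and at 6.76 to 19.3 (median 8.42) in rIL34 wounds, where the groups overlapped through rIL34 replicates 1 and 4. The log2 fold change was -0.66 (SE 0.27, adjusted p = 0.0624), and it was -0.69 in DESeq2 (adjusted p = 0.0379) and -0.72 with voom (adjusted p = 0.0179). In edgeR it also passed when rctrl replicate 2, rctrl replicate 4 or rIL34 replicate 4 was left out, at -0.94 to -0.74 (adjusted p = 0.00805 to 0.0479).

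The other rows were on both sides of 0 after rIL34. The log2 fold change was 0.61 for *pecam1.L* (adjusted p = 0.177) and 0.48 for *pecam1.S* (adjusted p = 0.31). It was -0.18 for *cdh5.L* (adjusted p = 0.853) and -0.40 for *cdh5.S* (adjusted p = 0.381). The rIL34 libraries at 7 dpw spread widely: *pecam1.L* was at 15.02, 6.01, 3.90, 15.2, 3.00 and 10.8 CPM in replicates 1 to 6, and *vwf.L* at 62.8, 24.5, 18.3, 76.7, 12.8 and 37.1. Replicates 1 and 4 were the highest and replicate 5 the lowest for both genes. In rctrl wounds *pecam1.L* was at 2.19 to 7.40 CPM.

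Between the cytokines at 7 dpw, 1 row was higher and 1 lower in rCSF1 than in rIL34 wounds, where 9.35% of all tested rows were higher and 8.05% lower. The row that was higher was *cdh5.L*, at 5.84 to 26.7 CPM (median 11.6) in rIL34 wounds, with a log2 fold change of 3.09 (SE 0.64, adjusted p = 0.00169). The row that was lower was *pecam1.L*, an adhesion molecule of endothelial cells, on chromosome 9_10L at 54499572 to 54521223. It was at 1.87 to 6.28 CPM (median 5.15) in rCSF1 and at 3.00 to 15.2 (median 8.42) in rIL34 wounds, with overlapping groups and a log2 fold change of -1.03 (SE 0.34, adjusted p = 0.032). Its S copy had -0.81 (adjusted p = 0.0968).

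Both calls depended on libraries. Without rCSF1 replicates 2 and 5, *cdh5.L* was at 1.40 (adjusted p = 0.118) and *pecam1.L* at -0.67 (adjusted p = 0.254). In that fit edgeR called none of the 13 rows (1 with an unadjusted p under 0.05). Over all tested rows it called 1754 there and 4910 with all libraries. Without any 1 of rCSF1 replicates 2 and 5 and rIL34 replicates 1, 4 and 6, *pecam1.L* was at -0.97 to -0.81 (adjusted p = 0.0629 to 0.111). A fit to these groups alone called none of the 13 (2 with an unadjusted p under 0.05) and 5 of all tested rows. Voom called none of the 13 (1 with an unadjusted p under 0.05) and 2086 of all tested rows. *pecam1.S* passed without rIL34 replicate 5 (-0.98, adjusted p = 0.031), and *tie1.L* without that library or without rCSF1 replicate 1 (-0.97 and -1.18).

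At 14 dpw no endothelial row was called between any of the treatments. Few rows of any kind were, with 0.857% of all tested rows higher and 0.0957% lower in rCSF1 than in rctrl wounds, 0.0461% higher and 0.00354% lower in rIL34 than in rctrl wounds, and 1.08% higher and 0.152% lower in rCSF1 than in rIL34 wounds. Leaving out rCSF1 replicates 1, 2 and 6 took the calls over all tested rows from 269 to 4 against rctrl. Against rIL34 they went from 349 to 0, and no endothelial row was called in either fit. In each comparison with all libraries edgeR had 1 endothelial row with an unadjusted p under 0.05, DESeq2 called 0 and voom called 0. For rCSF1 against rctrl that row was *vwf.L*, at 31.6 to 50.2 CPM (median 47.8) in rctrl wounds and at 104, 55.1, 29.3, 92.4, 55.6 and 145 in replicates 1 to 6 of rCSF1 wounds. Thus 5 of the 6 rCSF1 libraries were above every rctrl library and replicate 3 was below them all, and the log2 fold change was 0.84 (SE 0.38, adjusted p = 0.401). *vwf.L* was highest in replicates 6, 1 and 4, where the muscle rows summed to 30590, 2847 and 148.5 CPM. The rctrl libraries at 14 dpw had sums of 12.3 to 72.7. In replicates 2 and 5, with 4156 and 145.8 CPM of muscle rows, *vwf.L* was at 55.1 and 55.6 CPM. Without replicates 1, 2 and 6 its log2 fold change was 0.39 (adjusted p = 1.0), and the part of muscle tissue in it was not tested.

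For rIL34 against rctrl at 14 dpw the row was *cdh5.L*, at 7.29 to 11.7 CPM (median 8.94) in rctrl and at 11.9, 10.4, 12.5, 84.2, 17.7 and 9.77 in replicates 1 to 6 of rIL34 wounds. Replicate 4 was far above the other 5, of which 3 were above every rctrl library, and the log2 fold change was 1.41 (SE 0.60, adjusted p = 0.533), or 0.43 without replicate 4 (adjusted p = 0.958). The exact two-sided Wilcoxon test, unadjusted, had p = 0.0152. *cdh5.S* was also highest in replicate 4, at 10.2 CPM against 4.37 to 8.09 in the other rIL34 libraries. The L copy, with 2620 reads against 316 of the S copy, took 89.2% of the reads of both there. For rCSF1 against rIL34, *cdh5.L* had a log2 fold change of -1.31 (SE 0.60, adjusted p = 0.334).

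Between the days 3 of these rows were called in rctrl, 7 in rCSF1 and 1 in rIL34 wounds, with *flt1.S* higher at 14 dpw in each treatment. In rctrl wounds 3 of the 13 rows rose from 7 to 14 dpw, where 22.9% of all tested rows were called higher and 26.4% lower. They were both copies of *pecam1* and *flt1.S*, which encodes the VEGF-binding receptor FLT1 and lies on chromosome 2S at 146980277 to 147021115. *flt1.S* was at 1.68, 0.353, 1.40, 1.10, 1.67 and 1.27 CPM in replicates 1 to 6 at 7 dpw and at 2.32, 3.25, 3.87, 2.69, 1.85 and 3.28 at 14 dpw. The days did not overlap, and the log2 fold change was 1.21 (SE 0.32, adjusted p = 0.00239).

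*pecam1.L* was at 2.19 to 7.40 CPM (median 6.61) at 7 dpw and at 8.06 to 17.3 (median 12.4) at 14 dpw in rctrl wounds. Again the days did not overlap, and the log2 fold change was 1.02 (SE 0.33, adjusted p = 0.0117). The share of all tested rows without overlap between the days was not counted. *pecam1.S*, on chromosome 9_10S at 46773001 to 46800323, was at 2.76 to 5.41 CPM and at 4.60 to 10.9, with a log2 fold change of 1.06 (SE 0.34, adjusted p = 0.01). The 12 fits that each left out 1 library kept the calls of these 3 rows, at 0.85 to 1.31. The other 10 rows had log2 fold changes of -0.76 for *kdr.S* (adjusted p = 0.0786) to 0.54 for *flt1.L* (adjusted p = 0.125) and did not pass. The VEGF receptor row *kdr.S*, on chromosome 1S at 29407685 to 29437231, was at 1.87 to 6.18 CPM at 7 dpw and at 1.86 to 3.55 at 14 dpw. It passed without rctrl replicate 2 at 7 dpw or rctrl replicate 6 at 14 dpw (-0.91 and -0.92), and *flt1.L* passed without rctrl replicate 5 at 14 dpw (0.73).

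In rCSF1 wounds 6 rows rose and 1 fell from 7 to 14 dpw, where 23.9% of all tested rows were called higher and 30.4% lower. Those that rose were *vwf.L* (log2 fold change 1.59, SE 0.39, adjusted p = 0.000911), *pecam1.L* (1.55, SE 0.34, adjusted p = 0.000314), *tie1.L* (1.54, SE 0.36, adjusted p = 0.000718), *flt1.S* (1.47, SE 0.33, adjusted p = 0.000382), *pecam1.S* (1.43, SE 0.34, adjusted p = 0.000865) and *flt1.L* (0.96, SE 0.29, adjusted p = 0.00647). The days did not overlap for *pecam1.L*, *pecam1.S*, *flt1.L* and *flt1.S*, and how many of all tested rows had no overlap was not counted. *tie1.L* was at 0.469 to 2.96 CPM at 7 dpw and at 2.57 to 5.48 (median 4.14) at 14 dpw, where it overlapped only through replicate 5 at 14 dpw and replicate 1 at 7 dpw. The row that fell was *cdh5.L*, from a median of 56.7 to one of 10.5 CPM, with a log2 fold change of -3.55 (SE 0.65, adjusted p = 3.72e-05).

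These 7 calls held when any 1 library was left out, and voom did not call *flt1.L* (0.74, adjusted p = 0.0685). Without rCSF1 replicates 2 and 5 at 7 dpw, 6 rows were called higher and 1 lower, and without replicates 1, 2 and 6 at 14 dpw, 5 were called higher and 2 lower. Calls over all tested rows numbered 15314 with all libraries, 12872 in the former fit and 11654 in the latter. *cdh5.L* was at -1.79 in the former fit (adjusted p = 0.00798). In the latter *flt1.L* was at 0.78 (adjusted p = 0.0779) and *kdr.S* at -1.07 (adjusted p = 0.0295). *tek.S*, at 0.74 (adjusted p = 0.0634), passed without any 1 of rCSF1 replicates 1, 3 and 6 at 7 dpw (0.87 to 0.94), and *egfl7.S*, at 0.54 (adjusted p = 0.125), without replicate 1 or 4 (0.80 and 0.74).

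In rIL34 wounds all 13 rows had log2 fold changes above 0 from 7 to 14 dpw, from 0.15 for *cdh5.S* to 0.85 for *cdh5.L*, with a median of 0.46 against -0.05 over all tested rows. Only *flt1.S* was called, at 0.705 to 2.49 CPM on 7 dpw and 2.22 to 3.48 on 14 dpw, with a log2 fold change of 0.79 (SE 0.32, adjusted p = 0.04). Of all tested rows 20.4% were called higher and 27.1% lower. Without any 1 of rIL34 replicates 2, 3, 5 and 6 at 7 dpw and 2 and 3 at 14 dpw, *flt1.S* was at 0.65 to 0.78 (adjusted p = 0.0625 to 0.104). *flt1.L*, at 0.65 (adjusted p = 0.0621), passed without rIL34 replicate 1 of either day (0.89 and 0.75), *pecam1.S* and *tie1.L* without rIL34 replicate 1 at 7 dpw (0.90 and 0.92), and *egfl7.L* without replicate 4 at 7 dpw (0.75). Voom called 6 of the 13 rows, all higher at 14 dpw. In either direction it called 15768 of the 28225 tested rows, where edgeR called 13416, so that voom called more rows of any kind.

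**Figure D4:**
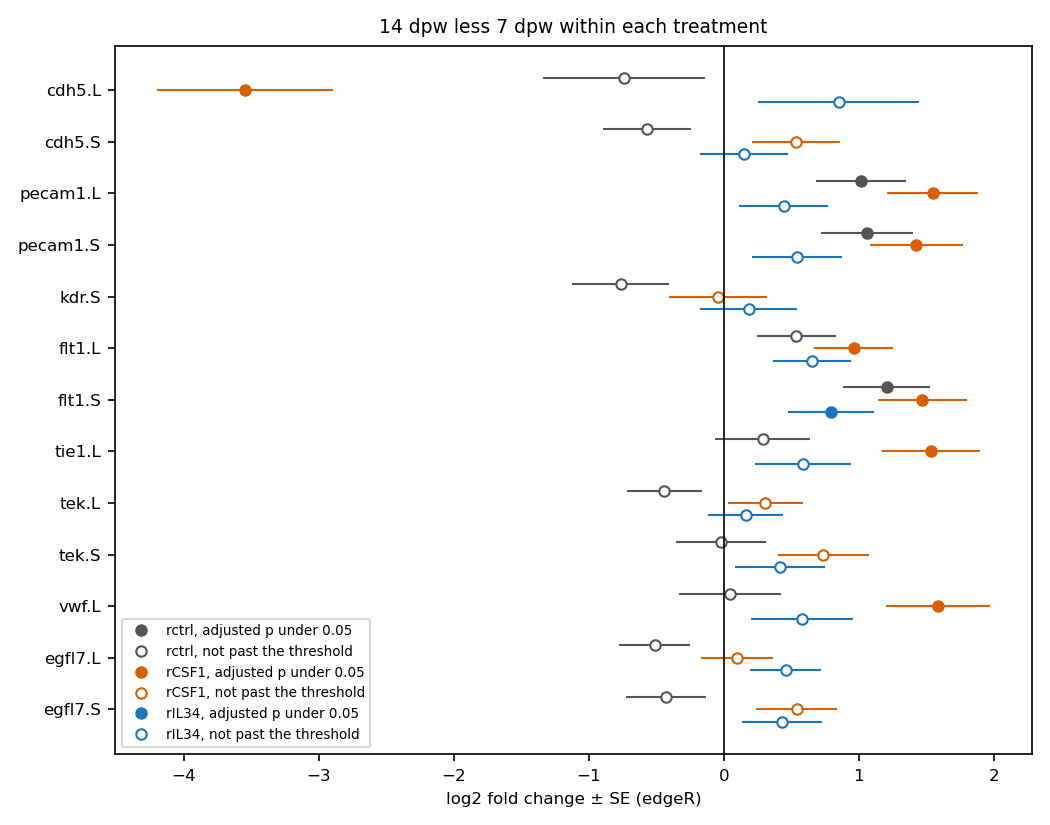
Log2 fold change from 7 to 14 dpw (horizontal, with the standard error as a bar) of the 13 endothelial cell gene rows within rctrl, rCSF1 and rIL34 wounds, from 6 libraries a group. Filled points passed an adjusted p of 0.05, with *flt1.S* at 1.21, 1.47 and 0.79 in the 3 treatments and *cdh5.L* at -3.55 in rCSF1 wounds.

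The size of a cytokine's effect was also compared between the days. For rCSF1, 1 row had a higher and 1 a lower effect at 14 than at 7 dpw, where 5.51% of all tested rows were higher and 10.5% lower. The effect on *vwf.L* went from -0.70 at 7 dpw to 0.84 at 14 dpw, a difference of 1.54 on the log2 scale (SE 0.54, adjusted p = 0.0463). The effect on *cdh5.L* went from 2.91 to 0.11, a difference of -2.81 (SE 0.85, adjusted p = 0.0253). The 12 rows other than *cdh5.L* had differences of 0.26 to 1.54.

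Neither call was firm. Without rCSF1 replicates 2 and 5 at 7 dpw the differences were 1.30 for *vwf.L* (adjusted p = 0.201) and -1.06 for *cdh5.L* (adjusted p = 0.444). Without rCSF1 replicates 1, 2 and 6 at 14 dpw they were 1.10 (adjusted p = 0.257) and -2.99 (adjusted p = 0.0962). No endothelial row was called in either fit (1 with an unadjusted p under 0.05 in each). Over all tested rows edgeR called 4531 with all libraries, 571 in the former fit and 69 in the latter. Fewer rows of any kind were thus called in both fits, so that the absence of endothelial calls there is not specific to these genes. *cdh5.L* did not pass without replicate 2 or without replicate 5 of rCSF1 at 7 dpw (-2.37 to -2.25, adjusted p = 0.0689 to 0.0857). *vwf.L* did not pass without any 1 of 17 of the 24 libraries (1.29 to 1.60, adjusted p = 0.0512 to 0.105). These were rctrl replicates 1, 3, 5 and 6 and rCSF1 replicates 2, 3, 5 and 6 at 7 dpw, and all 6 rctrl replicates and rCSF1 replicates 1, 4 and 6 at 14 dpw. *tie1.L*, at 1.25 (adjusted p = 0.0842), passed without rCSF1 replicate 1 or 3 at 7 dpw (1.67 and 1.46) and *egfl7.S* without replicate 1 (1.22).

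For rIL34 edgeR called none of the 13 rows (2 with an unadjusted p under 0.05), where 7.55% of all tested rows were higher and 10.9% lower, while DESeq2 called 1 and voom 2. The row with the lowest adjusted p was *egfl7.L*, whose rIL34 effect was -0.66 at 7 dpw and 0.31 at 14 dpw, a difference of 0.97 (SE 0.37, adjusted p = 0.0672). It passed without rctrl replicate 2 or rIL34 replicate 4 at 7 dpw (1.09 and 1.25, adjusted p = 0.0144 to 0.0374).

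Across the 36 libraries most of the rows moved together, *cdh5.L* and *kdr.S* least so. Spearman's correlation coefficient over the 66 pairs without *cdh5.L* was -0.03 to 0.90 with a median of 0.57, and over the 12 pairs with *cdh5.L* it was -0.19 to 0.53 with a median of 0.22. With the mean of each group removed the medians were 0.60 and 0.21. The 12 pairs with *kdr.S* had coefficients of -0.03 to 0.53 with a median of 0.21, or 0.29 with group means removed, and the medians of the other 11 rows were 0.39 to 0.67. The copies of *egfl7* had a coefficient of 0.90, those of *pecam1* of 0.88, *flt1* 0.77, *tek* 0.62 and *cdh5* 0.37. These correlations describe the libraries, whose values share depth, scaling and tissue composition.

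**Figure D5:**
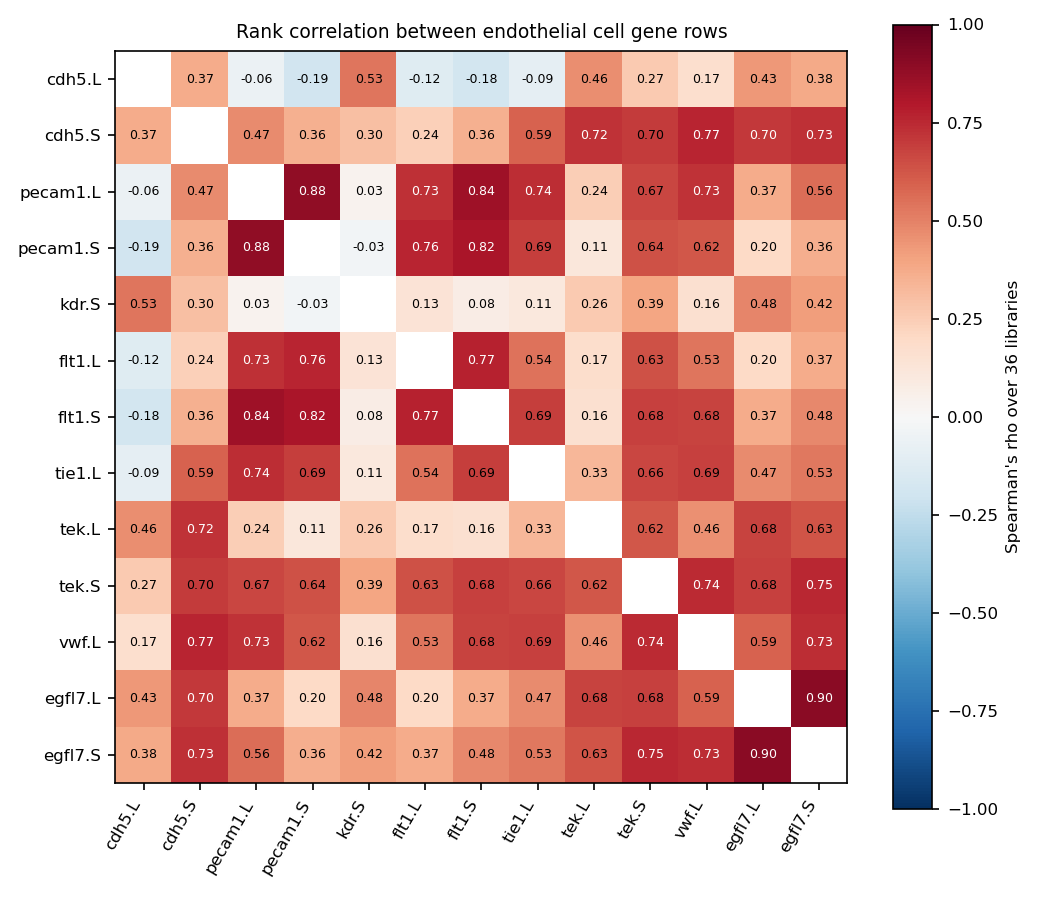
Spearman's correlation coefficient over 36 libraries between each pair of the 13 endothelial cell gene rows, in color and print, with the same rows on both axes. The rows and columns of *cdh5.L* and *kdr.S* are pale, with medians of 0.22 and 0.21, and the 66 pairs without *cdh5.L* have a median of 0.57.

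The mean of the 12 rows other than *cdh5.L*, each set to mean 0 and SD 1 over the 36 libraries on the scale of log2(CPM + 1), was lowest in rCSF1 replicates 2 and 5 at 7 dpw, at -2.14 and -1.75. It was -1.10 to 0.764 in rctrl wounds at 7 dpw and -0.204 to 0.454 at 14 dpw, so that rctrl wounds were more alike at 14 dpw. By treatment, its median was 0.282, -0.381 and -0.513 in rctrl, rCSF1 and rIL34 wounds at 7 dpw and 0.196, 0.429 and 0.536 at 14 dpw, and the groups overlapped. Over the 36 libraries its Spearman coefficient was 0.79 with the summed level of the angiopoietin and Tie pathway rows, 0.70 with that of other endothelial surface and junction rows, 0.43 with the fibroblast rows, 0.06 with the red blood cell rows and -0.45 with the epidermal rows. With group means removed these were 0.83, 0.66, 0.60, 0.37 and -0.60. Not all vessel lists had high coefficients. The coefficient was 0.30 with the endothelial transcription factor rows and 0.19 with the VEGF ligand and co-receptor rows, both below the fibroblast rows. With the pericyte and smooth muscle rows it was 0.41. After removal of group means, these were 0.37, 0.36 and 0.39.

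Of all tested rows, those most like the mean of all 13 standardized members were *afap1l1.S* (coefficient 0.87 over 36 libraries), *robo4.S* (0.85), which encodes an endothelial receptor that limits vessel leakage, *ARAP3* (0.85), *fgd5.L* (0.85), which encodes a guanine nucleotide exchange factor known from mammalian endothelium, and *LOC108713014* (0.85). With group means removed, the unnamed locus *LOC108698463* (0.94) was most alike. It was followed by *fgd5.L* (0.92), *LOC108713014* (0.92), *robo4.S* (0.91) and *col4a1.L* (0.88), a basement membrane collagen. The rest of the 10 most alike were *heg1.L* (0.88), a receptor of endothelial junctions, *dab2.S* (0.86), *afap1l1.S* (0.86), *ARAP3* (0.85) and *she.L* (0.85). The rows most like *cdh5.L* alone were others: *socs3l.S* (0.75), *LOC108711090* (0.74), *steap4.1.L* (0.74), *plpp3l.L* (0.73) and *steap4.2.L* (0.73).

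The ligands that act on these receptors were examined as a list. The shares called over all tested rows, against which each list count can be read, were 20.4% higher and 14.1% lower after rCSF1 and 15.8% and 11.2% after rIL34 at 7 dpw, and 22.9% and 26.4% in rctrl, 23.9% and 30.4% in rCSF1 and 20.4% and 27.1% in rIL34 wounds from 7 to 14 dpw. Without rCSF1 replicates 2 and 5, 3626 of all tested rows were called after rCSF1 at 7 dpw. From 7 to 14 dpw in rCSF1 wounds, 12872 were called without them and 11654 without replicates 1, 2 and 6 at 14 dpw. Of 10 tested rows of VEGF ligands and co-receptors, 3 rose and 4 fell after rCSF1 at 7 dpw (median log2 fold change -0.61), and 3 rose and 0 fell without replicates 2 and 5 (median -0.34). *vegfa.L*, the main ligand of KDR and FLT1, was at 24.5 to 31.2 CPM in rctrl and at 43.0, 291, 35.3, 44.6, 133 and 63.0 in replicates 1 to 6 of rCSF1 wounds. All 6 rCSF1 libraries were above every rctrl library, with replicates 2 and 5 the highest as for *cdh5.L*. Its log2 fold change was 1.86 (SE 0.31, adjusted p = 5.69e-05), and 0.70 without replicates 2 and 5 (adjusted p = 0.00249). *vegfa.S* had 1.48 (adjusted p = 0.000107), and 0.62 without them (adjusted p = 0.018). *vegfc.L*, the ligand of the lymphatic receptor FLT4, was at 23.9 to 43.0 CPM in rctrl and at 3.495 to 28.4 in rCSF1 wounds. Its log2 fold change was -1.23 (SE 0.34, adjusted p = 0.00551) after rCSF1, and -0.86 without those replicates (adjusted p = 0.0724). After rIL34 it fell by 1.06 on the log2 scale (SE 0.34, adjusted p = 0.0192), and it was the only row of the list called there.

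Of 8 tested rows of angiopoietins and the Tie pathway, 3 fell after rCSF1 at 7 dpw (median -0.46), and 1 did without replicates 2 and 5. The row with the lowest adjusted p was *svep1.L* (-1.35, SE 0.35, adjusted p = 0.0034), whose product is known in mammals as a ligand of TIE1, and *angpt2.S*, which encodes an angiopoietin made by endothelial cells, had -1.16 (SE 0.44, adjusted p = 0.0394). The row still called without replicates 2 and 5 was *svep1.L* (-0.96, adjusted p = 0.0406). *angpt2.S*, at 0.384 to 4.72 CPM in rCSF1 wounds, was not called there. In rctrl at 7 dpw *svep1.L* had a median of 72.4 CPM, where the list's sum had 122.6. From 7 to 14 dpw in rCSF1 wounds, 3 of the 8 rose, among them *angpt1.L*, the ligand that activates TEK (1.06, SE 0.31, adjusted p = 0.0045). Without replicates 2 and 5 at 7 dpw 2 rose and 2 fell, and without replicates 1, 2 and 6 at 14 dpw 1 rose and 0 fell.

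Of 26 tested rows of endothelial transcription factors, 3 rose and 6 fell after rCSF1 at 7 dpw (median -0.61), and 2 rose and 0 fell without replicates 2 and 5. *sox7.L* was highest in rCSF1 replicates 2 and 5 at 7 dpw, as *cdh5.L* was, at 285 and 164 CPM. It was at 18.7 to 81.5 in the remaining libraries of the group and at 4.33 to 36.1 in rctrl. Unlike *cdh5.L*, it reached 89.7 CPM in rIL34 wounds at 7 dpw and at most 8.74 in rIL34 wounds at 14 dpw. Its log2 fold change after rCSF1 at 7 dpw was 2.66 (SE 0.58, adjusted p = 0.000655), and 1.49 without replicates 2 and 5 (adjusted p = 0.0615). *sox7.S* had 2.13 (SE 0.47, adjusted p = 0.000801), and 1.502 without them (adjusted p = 0.0355). Factors that fell included *prox1.S*, known for its role in lymphatic endothelium (-0.86, SE 0.29, adjusted p = 0.0195), and *ets1.L* (-0.52, SE 0.18, adjusted p = 0.0277). *ets1.L* fell after rIL34 as well (-0.68, SE 0.18, adjusted p = 0.00595). In rctrl wounds 12 of the 26 fell and 2 rose from 7 to 14 dpw.

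Of 49 tested rows of other endothelial surface and junction genes, 3 rose and 5 fell after rCSF1 at 7 dpw (median -0.29), both shares below those over all tested rows, and 1 rose and 0 fell without replicates 2 and 5. After rIL34 at 7 dpw 4 rose and 3 fell, among the former *dll4.L*, the Notch ligand of sprouting tip cells (0.77, SE 0.22, adjusted p = 0.00924). From 7 to 14 dpw 5 rose and 8 fell in rctrl wounds, 15 rose and 7 fell in rCSF1 wounds and 11 rose and 4 fell in rIL34 wounds. In rCSF1 wounds 8 rose and 4 fell without replicates 2 and 5 at 7 dpw, and 7 rose and 7 fell without replicates 1, 2 and 6 at 14 dpw. *dll4.L* was at 5.37 to 11.3 CPM at 7 dpw and at 19.3 to 28.7 at 14 dpw in rctrl wounds (1.41, SE 0.22, adjusted p = 3.93e-06).

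At 14 dpw, 2 rows of this list were higher in rIL34 than in rctrl wounds, the selectin genes *selp.L* and *Sele*, whose products catch rolling leukocytes on activated endothelium. In that comparison 0.0461% of all tested rows were higher and 0.00354% lower. *selp.L* was at 1.36 to 4.17 CPM in rctrl and at 3.70, 7.58, 5.52, 48.1, 16.6 and 11.9 in replicates 1 to 6 of rIL34 wounds. The groups overlapped through replicate 1, and replicate 4 was the highest, as it was for *cdh5.L*. The log2 fold change was 2.56 (SE 0.47, adjusted p = 0.023), and 1.77 without replicate 4 (adjusted p = 0.123). The called row *Sele*, 1 of 2 rows of that name, had 3.15 (SE 0.61, adjusted p = 0.0318) and did not pass without replicate 4 (adjusted p = 0.169). Medians of *selp.L* at 7 dpw were 14.8, 12.2 and 11.5 CPM in rctrl, rCSF1 and rIL34 wounds. Those of the called *Sele* row were 8.92, 7.01 and 3.73. In rIL34 wounds at 14 dpw the medians were 9.76 for *selp.L* and 4.85 for *Sele*, and in rctrl wounds 2.44 and 0.493.

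Markers of other cell types moved beside these results, and their part in them was not tested. After rCSF1 at 7 dpw, 7 of 18 red blood cell rows and 6 of 18 fibroblast rows fell and 14 of 17 epidermal rows rose. Without replicates 2 and 5 these counts were 0, 2 and 12, and 3626 of all tested rows were called, against 9748 with all libraries. The red blood cell rows summed to 875 to 2234 CPM in rctrl and to 86.5 to 1691 in rCSF1 wounds, the fibroblast rows to 10367 to 15440 and to 3071 to 17846, and the epidermal rows to 2753 to 7122 and to 4738 to 14622. After rIL34 at 7 dpw, 3 of the red blood cell rows fell, all 17 epidermal rows rose and 8 of 16 rows of pericytes and smooth muscle, the cells that wrap vessels, rose. From 7 to 14 dpw in rctrl wounds, 13 of those 16 rows rose and 2 fell, with sums of 437 to 610 CPM at 7 dpw and 957 to 1896 at 14 dpw, while 11 of 12 macrophage rows fell. In rCSF1 wounds over the same days, 13 of 16 pericyte and smooth muscle rows, 8 of 18 fibroblast rows and 16 of 16 skeletal muscle rows rose, while 8 of 17 epidermal rows fell and 1 rose, and 9 of 12 macrophage rows fell. Without rCSF1 replicates 2 and 5 at 7 dpw, 4 fibroblast rows rose and 1 fell, and 3 epidermal rows rose and 2 fell. In that fit 12 pericyte and smooth muscle rows and 16 skeletal muscle rows rose and 10 macrophage rows fell. Without replicates 1, 2 and 6 at 14 dpw, 12 pericyte and smooth muscle, 5 fibroblast and 14 skeletal muscle rows rose. There 9 macrophage rows fell, and 2 epidermal rows rose and 6 fell.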

How the data were processed

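The authors trimmed strand-specific, rRNA-depleted read pairs with fastp, aligned them with minimap2 2.29 to Xenopus_laevis_v10.1, handled alignments with SAMtools 1.16.1 and counted pairs over exons with featureCounts 2.1.1, with no strand option named. They deposited raw counts per gene. Libraries were grouped by the labels. Rows without a gene name (1.08% of counts) were left out. Rows with at least 0.5 CPM in 10 libraries were tested with the edgeR 4.0.16 quasi-likelihood test (R 4.3.3, TMM scaling, 1 model of the 6 groups over 36 libraries), with Benjamini-Hochberg adjustment over 28225 rows and a threshold of 0.05. Wilcoxon tests were exact and two-sided. Alternatives were RLE size factors, no filter, a replicate block, the compared groups alone, summed copies, libraries left out, voom (limma 3.58.1) and DESeq2 1.42.0. Left-out libraries for the pathway and marker lists and rIL34 replicate 4 at 14 dpw were chosen after seeing the data. The code was tested on simulated data. All members are named. Other lists give counts and up to 4 rows with the lowest adjusted p. Members and lists were chosen with earlier results of these data known. Positions are from the RefSeq table of the same build.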

Additional observations from a re-analysis of the deposited data

Results flagged for a closer look

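Within the groups of 6, 3 of the 78 gene and group combinations held a library far from the others by Dixon's test, where chance gives about 1 in 20. *cdh5.L* was at 84.2 CPM in rIL34 replicate 4 at 14 dpw, *pecam1.L* at 2.19 CPM in rctrl replicate 2 at 7 dpw and *kdr.S* at 3.55 CPM in rctrl replicate 6 at 14 dpw. The effect of rCSF1 differed between 14 and 7 dpw by -2.81 on the log2 scale for *cdh5.L* (adjusted p = 0.0253) and by 1.54 for *vwf.L* (adjusted p = 0.0463), both by edgeR's test of the difference.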

How the results depend on the processing

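The number of the 13 rows called changed in some comparisons. For rCSF1 against rctrl at 7 dpw it was 3, and 0 without rCSF1 replicates 2 and 5, 1 in the compared groups alone, 0 with voom and 1 to 5 when 1 library was left out. For rIL34 against rctrl it was 0, and 1 with voom, 1 with DESeq2 and 0 to 1 by library left out. For rCSF1 against rIL34 it was 2, and 0 without replicates 2 and 5, 0 in the compared groups alone, 0 with voom and 1 to 4 by library. At 14 dpw it was 0 in each alternative. From 7 to 14 dpw it was 3 in rctrl, and 5 with voom and 3 to 4 by library. In rCSF1 it was 7, and 6 with voom (*flt1.L* not called), 8 with DESeq2 (*tek.S* added at 0.78, adjusted p = 0.0379) and 7 to 9 by library. In rIL34 it was 1, and 2 with RLE factors, 2 in the compared groups alone, 6 with voom, 2 with DESeq2 and 0 to 4 by library. For the rCSF1 effect it was 2, and 1 with no filter, 0 without replicates 2 and 5, 0 without replicates 1, 2 and 6 at 14 dpw, 0 with voom and 0 to 4 by library. For the rIL34 effect it was 0, and 1 in the compared groups alone, 2 with voom, 1 with DESeq2 and 0 to 1 by library. Summing the copies turned the direction of *cdh5.S* to 2.33 for rCSF1 against rctrl and 2.61 against rIL34 at 7 dpw and to -2.82 from 7 to 14 dpw in rCSF1, since the L copy holds most of the reads. Same-numbered libraries deviated from their group means with correlations of -0.251 to 0.38. Their highest mean was 0.104, for rCSF1 against rIL34 at 7 dpw, where pairs of other numbers had -0.0192. The labels do not say that the numbers pair libraries, and these values cannot settle it. Within a group the replicate numbers follow the library names sorted as text. Libraries with the same replicate number often bear different numbers in their names, so that the replicate block has no basis in the labels. With a replicate block 4 rows were called for rCSF1 against rctrl at 7 dpw (*vwf.L* added at -0.89, adjusted p = 0.0497) and 8 from 7 to 14 dpw in rCSF1 (*tek.S* added at 0.83, adjusted p = 0.0397), and no count moved by over 1.5 times. The number called over all tested rows changed as well. For rCSF1 against rctrl at 7 dpw it was 9748, and 3626 without rCSF1 replicates 2 and 5 and 6253 with voom. For the rCSF1 effect it was 4531, and 571 without replicates 2 and 5 and 69 without replicates 1, 2 and 6 at 14 dpw. From 7 to 14 dpw in rIL34 wounds it was 13416, and 15768 with voom. The causes of these changes were not tested. Rows such as *flt1.S*, with as few as 8 reads, carry counting error that limits small differences.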
